A study of Mus musculus with 12 samples.

Results

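The libraries titled G3-YSD 1 and HSV 1 hold the strongest interferon state of a series of 12 RNA-sequencing libraries from transfected mouse L929 cells, and they are described here against the libraries titled mock 1 and hpRNA 1. L929 is an established mouse fibroblast line. The 4 libraries are 4 of the 12, and they were put together because their counts lie closest to each other in pairs, not because their labels match. The choice therefore rests on measured values, and every value of this comparison is a description of 4 libraries with no test. G3-YSD 1 is labelled as a G3-YSD transfection and HSV 1 as an HSV transfection. On the other side, mock 1 is labelled as untreated and hpRNA 1 as transfected with hpRNA. The remaining 8 libraries are G3-YSD 2, HSV 2, mock 2, hpRNA 2 and both libraries labelled HT-DNA and cGAMP. Per the labels, RNA was taken 6 h after transfection, polyA-selected, and read in pairs of 150 bases. The labels give no dose, virus type or number of passages, and they write the stimulators as abbreviations that are kept as they stand. They speak of duplicates without saying how the duplicates were made, and the 1 or 2 after HSV could be a replicate or a virus type. All 4 are labelled with the cell line L929, but the source name is L929 cells for G3-YSD and HSV and a mouse fibroblast line for mock and hpRNA, so a difference of culture or batch between the labels cannot be told apart from the stimulator.

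The labels and the counts disagreed about these 4 libraries. A noise ratio was computed for each pair of libraries, in which 1 is the difference that counting alone gives. It was 2.03 between G3-YSD 1 and HSV 1 and 1.83 between mock 1 and hpRNA 1. Between libraries of the same label it was 82.6 for G3-YSD 1 and G3-YSD 2, 76.3 for HSV 1 and HSV 2, 9.34 for mock 1 and mock 2, and 8.89 for hpRNA 1 and hpRNA 2. The next closest library to G3-YSD 1 and to HSV 1 was cGAMP 2, at 45.2 and 43.7. The next closest to mock 1 and to hpRNA 1 was HT-DNA 1, at 7.45 and 7.33. Across the comparison the ratio ran between 65.1 and 67.6 in the 4 pairs. Of 9589 genes at a level of at least 10 CPM (read counts scaled to the library total) in G3-YSD 1 or HSV 1, 19 lay 1.5-fold or more apart between these libraries. Of 9339 such genes in mock 1 or hpRNA 1, 13 did. By contrast, 3175 of 10017 genes at that level lay 1.5-fold or more apart in all 4 pairs across the comparison. The library labelled hpRNA 1 was thus close to the library labelled mock 1, and G3-YSD 1 and HSV 1 were close to each other under different labels. Total counts were 17117212 in G3-YSD 1 and 16427960 in HSV 1, against 16844344 in mock 1 and 16938176 in hpRNA 1, so depth was nearly equal. Over all 12 libraries totals lay between 12650790 and 18912400.

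Cells detect foreign nucleic acid with cytosolic sensors: RIG-I and MDA5 bind RNA, and cGAS binds DNA and makes cGAMP, which activates STING. Both routes activate the transcription factors IRF3 and NF-kB, which switch on the interferon beta gene. Secreted type I interferon then acts through the receptor IFNAR, the kinases JAK1 and TYK2, and the factor ISGF3, which holds STAT2 and IRF9. ISGF3 binds interferon-stimulated response elements and turns on the antiviral effector genes. Fibroblasts are a classical source of interferon beta, and L929 cells are widely used to assay interferon.

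The promoters of 9 genes described here were searched for motifs of the kinds these factors are known to bind. The 6 that held one are shown, and those of Irf7, Gbp2 and Eno2, which held neither, are not. The 6 genes are the interferon gene itself, 3 effectors, a chemokine and the NF-kB inhibitor. They are RefSeq sequences of build GRCm38.p6 that begin 250 bases upstream of the annotated transcription start, 5′ to 3′ on the strand of the gene. They run up to the start, except that of Ifit1, which ends at -19; among those not shown, Irf7 ends at -58 and Gbp2 at -62. Capitals mark the interferon-stimulated response element, searched as GAAA and GAAA with 2 bases of any kind between them, and the kB motif, searched as GGGA and TTCC with 2 bases of any kind between them, each on both strands.
Ifnb1, chr4:88522795-88523044, minus strand, kB motif at -116: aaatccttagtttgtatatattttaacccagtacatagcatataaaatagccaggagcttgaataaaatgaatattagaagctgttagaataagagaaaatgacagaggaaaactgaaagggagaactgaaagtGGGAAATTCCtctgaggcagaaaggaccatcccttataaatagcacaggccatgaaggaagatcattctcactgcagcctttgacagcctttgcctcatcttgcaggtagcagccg
Ifit1, chr19:34640639-34640870, plus strand, response elements at -104 and -85: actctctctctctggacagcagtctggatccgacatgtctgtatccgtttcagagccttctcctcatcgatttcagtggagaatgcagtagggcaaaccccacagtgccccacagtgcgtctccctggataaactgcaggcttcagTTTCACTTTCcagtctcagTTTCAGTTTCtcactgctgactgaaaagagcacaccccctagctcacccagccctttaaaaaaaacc
Rsad2, chr12:26456453-26456702, minus strand, response element at -120: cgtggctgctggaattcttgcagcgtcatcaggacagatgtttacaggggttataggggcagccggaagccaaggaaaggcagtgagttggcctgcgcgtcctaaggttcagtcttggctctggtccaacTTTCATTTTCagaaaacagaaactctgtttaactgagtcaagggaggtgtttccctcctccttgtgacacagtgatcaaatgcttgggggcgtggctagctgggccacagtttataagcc
Isg15, chr4:156200819-156201068, minus strand, 3 overlapping response elements at -78, -72 and -66: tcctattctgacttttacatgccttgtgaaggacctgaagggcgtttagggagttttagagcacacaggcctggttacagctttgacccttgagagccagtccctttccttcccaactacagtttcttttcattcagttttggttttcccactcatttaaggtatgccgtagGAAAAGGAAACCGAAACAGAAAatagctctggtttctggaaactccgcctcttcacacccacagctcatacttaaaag
Cxcl10, chr5:92348890-92349139, minus strand, response element at -213 and kB motif at -159: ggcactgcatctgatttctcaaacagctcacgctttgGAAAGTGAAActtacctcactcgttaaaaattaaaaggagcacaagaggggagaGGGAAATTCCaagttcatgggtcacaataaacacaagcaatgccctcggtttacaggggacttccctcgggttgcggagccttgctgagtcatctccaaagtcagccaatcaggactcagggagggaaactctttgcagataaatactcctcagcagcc
Nfkbia, chr12:55492648-55492897, minus strand, kB motif at -29: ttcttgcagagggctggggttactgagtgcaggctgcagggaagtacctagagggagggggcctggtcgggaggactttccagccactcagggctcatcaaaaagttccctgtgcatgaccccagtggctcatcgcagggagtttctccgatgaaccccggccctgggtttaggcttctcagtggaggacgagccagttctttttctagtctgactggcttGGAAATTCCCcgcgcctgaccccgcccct
In the 250 bases upstream of the start, the response element was present in 36 of 84 windows (42.9%) of the antiviral effector genes, of which 65 of 80 could be matched to the RefSeq table. It was present in 978 of all 32851 windows (2.98%). The kB motif was present in 4 of 24 windows (16.7%) of the NF-kB genes, of which 20 of 25 were matched, and in 397 windows (1.21%) of all. None of the 24 windows of the NF-kB genes held the response element. A match is a description of letters, not evidence of binding, and a window without one says nothing of the factor.

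A gene was counted as higher or lower when its level differed by at least 2-fold in the same direction in all 4 pairs: G3-YSD 1 over mock 1, G3-YSD 1 over hpRNA 1, HSV 1 over mock 1 and HSV 1 over hpRNA 1. Levels are CPM scaled by TMM, and counts under 3 were raised to 3 for a ratio. Of 16840 genes tested, 2919 were higher in G3-YSD 1 and HSV 1 (17.3%) and 838 were lower (4.98%). The list counts of this comparison given below are to be read beside these shares. At 4-fold, 1626 were higher and 60 lower, and at 32-fold 271 were higher and 0 lower. Many of the higher genes were scarce. Their median level in G3-YSD 1 and HSV 1 was 3.28 CPM, and 900 of them reached 10 CPM in both libraries. The lower genes had a median of 31.6 CPM in mock 1 and hpRNA 1, and 605 reached 10 CPM in both. In bulk RNA, fewer cells of a kind and less RNA per cell cannot be told apart, so a level here is an average over the culture.

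**Figure D1:**
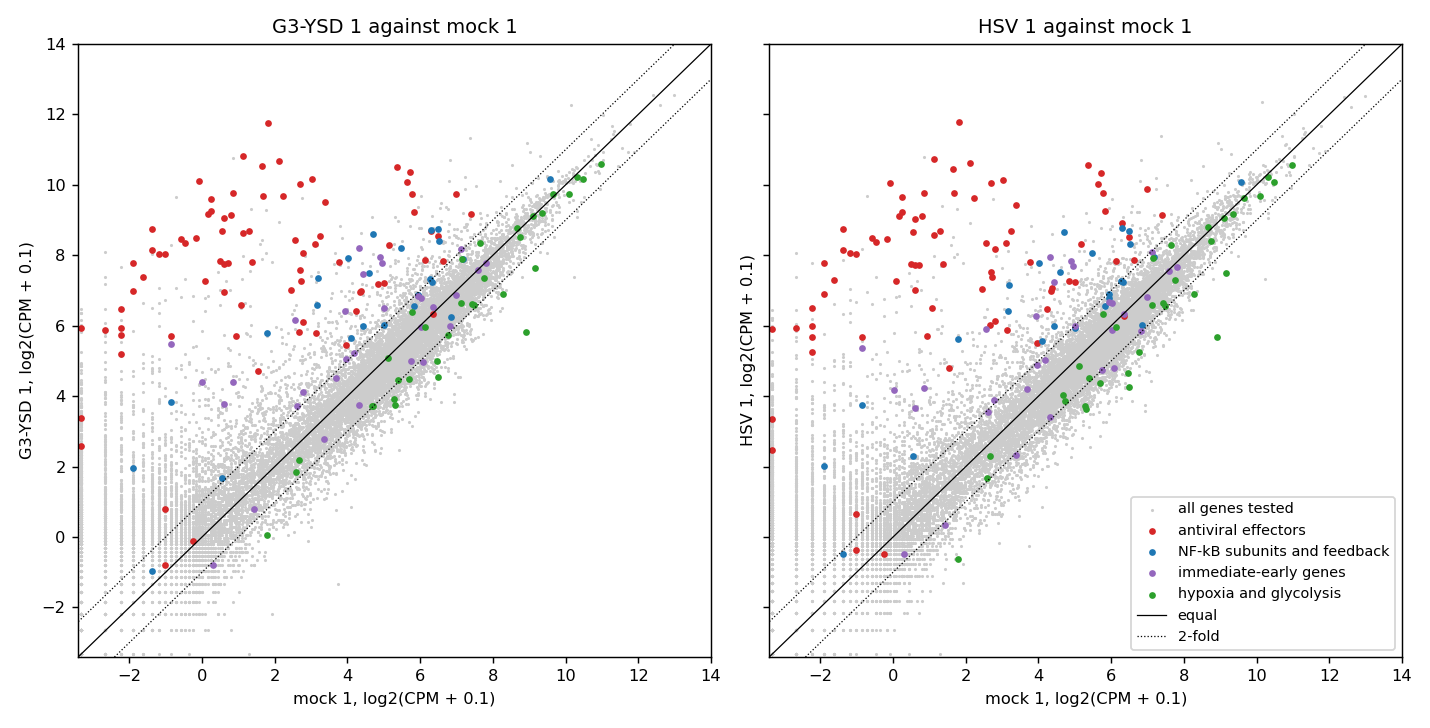
Level of each tested gene in G3-YSD 1 (left panel) and HSV 1 (right panel) on the y axis against mock 1 on the x axis, as log2(CPM + 0.1); coloured points are members of 4 gene lists, the solid line is equality and the dotted lines are 2-fold. The antiviral effectors stand far above the upper dotted line in both panels, 77 of the 80 measured being past 2-fold in all 4 pairs, while the hypoxia and glycolysis genes lie mostly near or below equality.

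Interferon genes themselves were counted in G3-YSD 1 and HSV 1 and hardly at all in mock 1 and hpRNA 1. Of the list, 7 of the 8 that passed the filter on low counts, out of 20 listed, were higher in G3-YSD 1 and HSV 1. None was lower, and their median log2 ratio was 3.85, against 0.06 over all genes tested. Only 4 of the 8 pass the filter in the other 10 libraries, and 3 of these 4 were higher. The list was thus measured in part because G3-YSD 1 and HSV 1 hold it, and the 7 of 8 and the median depend on that. Ifnb1, the gene of interferon beta, had 450 counts in G3-YSD 1 and 390 in HSV 1, against 0 in mock 1 and 0 in hpRNA 1. Its level was 26.6 CPM in G3-YSD 1 and 23.9 CPM in HSV 1, at least 139.7 times the level that 3 counts would give in mock 1 or hpRNA 1. The gene lies on chromosome 4 at bases 88522025 to 88522774 (GRCm38), in the same cluster as the alpha genes.
Ifna4, an early interferon alpha gene, had 198 counts in G3-YSD 1 and 200 in HSV 1, against 0 in mock 1 and 1 in hpRNA 1. Ifna5 had 87 counts in G3-YSD 1 and 60 in HSV 1, against 0 in mock 1 and 0 in hpRNA 1. Ifna13 had 51 counts in G3-YSD 1 and 58 in HSV 1, against 0 in mock 1 and 1 in hpRNA 1. All of these genes were thus near or at 0 counts in mock 1 and hpRNA 1 and clearly counted in the other pair. Alpha genes are close copies of each other, so reads may be shared among them. Summed over the list, interferon transcripts came to 52.7 CPM in G3-YSD 1 and 47.9 CPM in HSV 1, against 0.114 CPM in mock 1 and 0.399 CPM in hpRNA 1.

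Of the sensors and adaptors, 13 of 22 measured were higher and 1 was lower, with a median log2 ratio of 1.81. The higher members were led by sensors that are themselves interferon-stimulated. Ifih1, which encodes the RNA sensor MDA5, had 416 and 401 CPM in G3-YSD 1 and HSV 1, against 1.36 and 1.48 CPM in mock 1 and hpRNA 1, which is 270.4 to 305 times as much. Ddx58, which encodes RIG-I, had 797 and 769 CPM in G3-YSD 1 and HSV 1, against 6.59 and 7.87 CPM in mock 1 and hpRNA 1. Dhx58, the gene of the related helicase LGP2, had 497 and 485 CPM in G3-YSD 1 and HSV 1, against 4.26 and 4.28 CPM in mock 1 and hpRNA 1. Each of the 3 RNA helicases was at least 97.6 times as high in every pair.
Zbp1, a sensor of Z-form nucleic acid that can trigger necroptosis, had 2808 counts in G3-YSD 1 and 2714 in HSV 1, against 1 in mock 1 and 7 in hpRNA 1. Tlr3, the endosomal sensor of double-stranded RNA, had 69.8 and 77.9 CPM in G3-YSD 1 and HSV 1, against 0.739 and 0.742 CPM in mock 1 and hpRNA 1. The genes of DNA sensing differed less. Cgas, the DNA sensor, had 30.00 and 31.1 CPM in G3-YSD 1 and HSV 1, against 8.75 and 7.36 CPM in mock 1 and hpRNA 1, 3.43 to 4.22 times as much. Tmem173, which encodes STING, had 16.5 and 15.6 CPM in G3-YSD 1 and HSV 1, against 19.7 and 21.97 CPM in mock 1 and hpRNA 1, within 2-fold in every pair. The only lower member was Ticam1, the adaptor of TLR3, at 19.7 and 19.1 CPM in G3-YSD 1 and HSV 1, against 40.6 and 41.4 CPM in mock 1 and hpRNA 1; it was named after its values were seen.

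At the next step, the receptor and the JAK-STAT components, 9 of 16 measured genes were higher and 0 lower, with a median log2 ratio of 1.42. Both receptor chains stayed within 2-fold. Ifnar1 had 46.6 and 46.6 CPM in G3-YSD 1 and HSV 1, against 77.1 and 75.5 CPM in mock 1 and hpRNA 1. Ifnar2 had 34.8 and 32.5 CPM in G3-YSD 1 and HSV 1, against 30.4 and 33.9 CPM in mock 1 and hpRNA 1. Stat2 and Irf9, which encode components of ISGF3, were both higher. Stat2 had 539.8 and 549.9 CPM in G3-YSD 1 and HSV 1, against 25.6 and 23.2 CPM in mock 1 and hpRNA 1. Irf9 had 180.5 and 176 CPM in G3-YSD 1 and HSV 1, against 12.8 and 12.2 CPM in mock 1 and hpRNA 1. Stat2 was thus 21.1 to 23.7 times as high.
Among the interferon regulatory factors, Irf7, the factor that amplifies interferon alpha transcription, differed most, at 239.7 and 248 CPM in G3-YSD 1 and HSV 1, against 3.07 and 2.68 CPM in mock 1 and hpRNA 1, 78.1 to 92.3 times as much. Irf1, which acts on interferon and antigen-presentation genes, had 358 and 339 CPM in G3-YSD 1 and HSV 1, against 14.2 and 13.5 CPM in mock 1 and hpRNA 1. Irf5 had 20.4 and 21.5 CPM in G3-YSD 1 and HSV 1, against 0.853 and 0.742 CPM in mock 1 and hpRNA 1. The libraries within each side were close to each other for all 3 factors.

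The antiviral effectors had the largest median ratio of all the lists. Of 82 listed genes, 80 were measured, and 77 of these were higher in G3-YSD 1 and HSV 1, with 0 lower. Their median log2 ratio was 6.53. All 80 also pass the filter in the other 10 libraries alone, so the count does not depend on genes that only these libraries hold. Summed over the list, effector transcripts were 35022 CPM in G3-YSD 1 and 34902 CPM in HSV 1, against 1308 CPM in mock 1 and 1345 CPM in hpRNA 1. The 3 members that were neither higher nor lower were Ifitm1, Ifitm2 and Parp12, named after their values were seen. Ifitm2 had 80.7 and 76.8 CPM in G3-YSD 1 and HSV 1, against 81.1 and 80.96 CPM in mock 1 and hpRNA 1, while Ifitm1 and Parp12 stayed under 1 CPM in all 4 libraries.

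Rsad2, which encodes viperin, an enzyme that makes a chain-terminating nucleotide, was the most abundant effector named, at 3456 and 3499.8 CPM in G3-YSD 1 and HSV 1, against 3.41 and 3.65 CPM in mock 1 and hpRNA 1. It was 946 to 1026 times as high. Ifit1, whose product binds RNA that lacks a host cap and blocks its translation, had 1805 and 1696 CPM in G3-YSD 1 and HSV 1, against 2.10 and 2.28 CPM in mock 1 and hpRNA 1, 743 to 858 times as much. These are the genes whose response elements are printed above.
Ifit3, a partner of Ifit1, had 881 and 866 CPM in G3-YSD 1 and HSV 1, against 1.71 and 1.54 CPM in mock 1 and hpRNA 1. Ifit2 had 1446 and 1504 CPM in G3-YSD 1 and HSV 1, against 41.2 and 37.4 CPM in mock 1 and hpRNA 1, 35.1 to 40.2 times as much, a smaller ratio from a higher level in mock 1 and hpRNA 1. Isg15, a ubiquitin-like protein conjugated to other proteins, had 829 and 869 CPM in G3-YSD 1 and HSV 1, against 3.13 and 2.74 CPM in mock 1 and hpRNA 1. Oasl1, a member of the oligoadenylate synthetase family that in mouse restrains Irf7 translation, had 1639.8 and 1565 CPM in G3-YSD 1 and HSV 1, against 4.26 and 3.71 CPM in mock 1 and hpRNA 1.
Mx1, a dynamin-like GTPase that blocks virus nucleocapsids, had 5539 counts in G3-YSD 1 and 5443 in HSV 1, against 11 in mock 1 and 1 in hpRNA 1. Its relative Mx2 had 357 and 354 CPM in G3-YSD 1 and HSV 1, against 0.796 and 0.456 CPM in mock 1 and hpRNA 1. The sides did not overlap for any of these genes. That follows from being past 2-fold in all 4 pairs, as 22.3% of all genes tested were in either direction, and is no added support.

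The guanylate-binding proteins and their relatives, GTPases that attack pathogen compartments, filled much of the top of the ranking. Of the 12 genes with the largest smallest ratio at 10 CPM or more, 5 were guanylate-binding or related GTPase genes. Gbp3 had 1106 and 1068 CPM in G3-YSD 1 and HSV 1, against 0.853 and 0.913 CPM in mock 1 and hpRNA 1, 1169 to 1297 times as much. Gbp5 had 428 and 429 CPM in G3-YSD 1 and HSV 1, against 0.284 and 0.571 CPM in mock 1 and hpRNA 1. Gbp2 had 3696 counts in G3-YSD 1 and 3571 in HSV 1, against 3 in mock 1 and 4 in hpRNA 1. Gbp9 had 2810 counts in G3-YSD 1 and 2542 in HSV 1, against 4 in mock 1 and 3 in hpRNA 1. Tgtp1, an immunity-related GTPase with a near-identical neighbour, had 2159 counts in G3-YSD 1 and 1953 in HSV 1, against 3 in mock 1 and 1 in hpRNA 1. All 5 were at or under 1 CPM in mock 1 and hpRNA 1.
Trim30c headed the ranking with 3452 counts in G3-YSD 1 and 3588 in HSV 1, against 2 in mock 1 and 3 in hpRNA 1; it belongs to a cluster of close TRIM copies on chromosome 7, so some of its reads may come from a copy. Ddx60, a helicase that assists RIG-I, had 261 and 265 CPM in G3-YSD 1 and HSV 1, against 0.341 and 0.228 CPM in mock 1 and hpRNA 1. Hdc, the enzyme that makes histamine from histidine, stood out as a gene outside the antiviral lists, at 264 and 235 CPM in G3-YSD 1 and HSV 1, against 0.284 and 0.342 CPM in mock 1 and hpRNA 1. Its ratio, 687 to 929 times, was of the same order as that of the GTPases.

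The feedback inhibitors were higher as well: 9 of 12 were higher and 0 lower, with a median log2 ratio of 2.37. Usp18, which removes Isg15 from proteins and blocks signalling at the receptor chain IFNAR2, had 632 and 669 CPM in G3-YSD 1 and HSV 1, against 2.44 and 2.51 CPM in mock 1 and hpRNA 1, 252 to 274 times as much. Socs1, which inhibits JAK kinases, had 36.3 and 33.5 CPM in G3-YSD 1 and HSV 1, against 5.12 and 7.25 CPM in mock 1 and hpRNA 1. Trim30a, an inhibitor of NF-kB signalling in mouse, had 624 and 638 CPM in G3-YSD 1 and HSV 1, against 3.30 and 3.14 CPM in mock 1 and hpRNA 1. Trim21, an antibody receptor and ubiquitin ligase, had 188 and 208 CPM in G3-YSD 1 and HSV 1, against 2.39 and 3.14 CPM in mock 1 and hpRNA 1. Isg20, an exonuclease of single-stranded RNA, had 270.3 and 272 CPM in G3-YSD 1 and HSV 1, against 12.6 and 14.6 CPM in mock 1 and hpRNA 1. Activators and inhibitors of the pathway thus stood high in the same libraries.

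Antigen presentation followed, with 17 of 21 measured genes higher, 0 lower and a median log2 ratio of 2.05. Tap1, a subunit of the peptide transporter of MHC class I loading, had 658 and 649 CPM in G3-YSD 1 and HSV 1, against 61.2 and 64.5 CPM in mock 1 and hpRNA 1, 10.05 to 10.8 times as much. H2-T22, a non-classical class I gene, had 215 and 214 CPM in G3-YSD 1 and HSV 1, against 12.4 and 10.2 CPM in mock 1 and hpRNA 1. H2-Q7 had 7.09 and 5.40 CPM in G3-YSD 1 and HSV 1, against 0.4547 and 0.399 CPM in mock 1 and hpRNA 1. H2-T10 had 294 counts in G3-YSD 1 and 288 in HSV 1, against 1 in mock 1 and 3 in hpRNA 1. B2m, the invariant chain, was abundant on both sides, with 1197 and 1209 CPM in G3-YSD 1 and HSV 1, against 713 and 759 CPM in mock 1 and hpRNA 1, and stayed under 2-fold. Class I genes are close copies, and reads among them may be shared.

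Of the chemokines and cytokines, 18 of 27 measured were higher and 0 lower, with a median log2 ratio of 2.56. Of the 26 that pass the filter in the other 10 libraries alone, 17 were higher. Cxcl10, which attracts activated T cells through CXCR3, had 1748 CPM in G3-YSD 1 and 1766 in HSV 1, against 1.71 CPM in mock 1 and 1.37 CPM in hpRNA 1. It was 1025 to 1289.6 times as high. Ccl5, an attractant for T cells and monocytes, had 811 and 829 CPM in G3-YSD 1 and HSV 1, against 0.512 and 0.742 CPM in mock 1 and hpRNA 1, 1094 to 1620.1 times as much.
The other CXCR3 ligands differed in level. Cxcl11 had 4648 counts in G3-YSD 1 and 4379 in HSV 1, against 1 in mock 1 and 4 in hpRNA 1. Cxcl9, which is known to depend mainly on interferon gamma, had 442 counts in G3-YSD 1 and 472 in HSV 1, against 6 in mock 1 and 3 in hpRNA 1. Il6, an inflammatory cytokine, had 113 and 98.7 CPM in G3-YSD 1 and HSV 1, against 0.568 and 0.285 CPM in mock 1 and hpRNA 1. Tnfsf10, the death ligand TRAIL, had 1100 counts in G3-YSD 1 and 1174 in HSV 1, against 0 in mock 1 and 1 in hpRNA 1. Tnf was the exception among these inflammatory genes, at 5.37 and 5.15 CPM in G3-YSD 1 and HSV 1, against 3.64 and 3.48 CPM in mock 1 and hpRNA 1, within 2-fold in every pair.

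**Figure D2:**
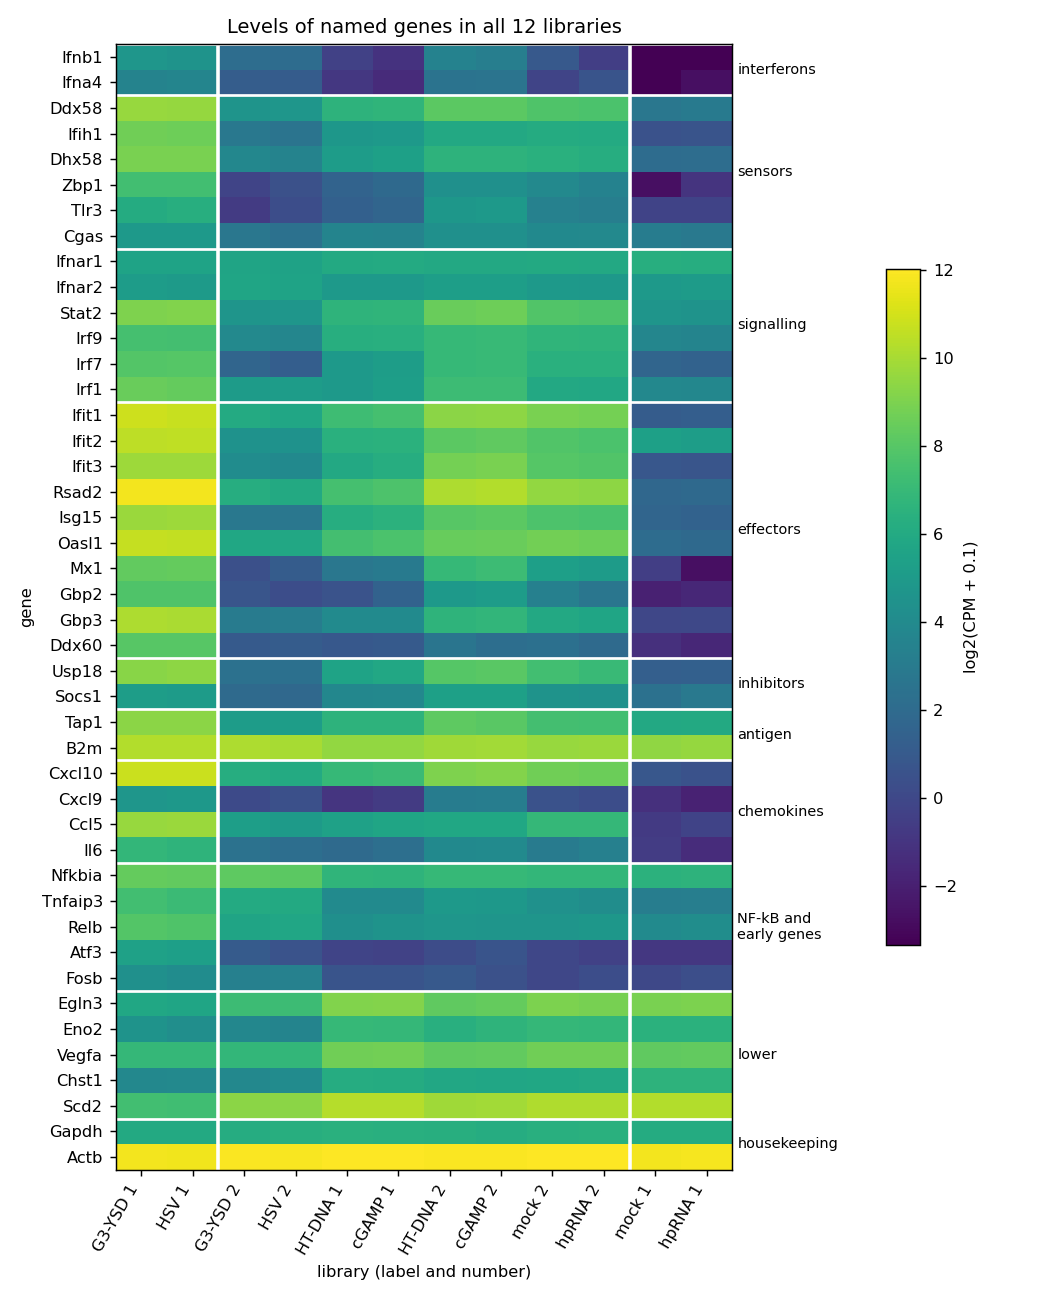
Levels of named genes (rows, grouped by role) in all 12 libraries (columns), as log2(CPM + 0.1) on a colour scale, with white lines setting G3-YSD 1 and HSV 1 apart at the left and mock 1 and hpRNA 1 apart at the right. The interferon, sensor, effector, inhibitor and chemokine rows are brightest in the left pair and mostly darkest in the right pair, the receptor rows Ifnar1 and Ifnar2 differ by less than 2-fold between these pairs, and the rows Egln3 and Scd2 run the other way.

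The NF-kB group was also higher, by less than the effectors. Of 25 measured subunits and feedback genes, 15 were higher and 0 lower, with a median log2 ratio of 1.63. Tnfaip3, the deubiquitinase A20 that ends NF-kB signalling, had 164 and 142 CPM in G3-YSD 1 and HSV 1, against 9.04 and 9.41 CPM in mock 1 and hpRNA 1, 15.05 to 18.1 times as much. Nfkbia, the inhibitor IkB-alpha, whose promoter is printed above, had 337 and 322 CPM in G3-YSD 1 and HSV 1, against 91.00 and 96.1 CPM in mock 1 and hpRNA 1. Relb, a subunit of the non-canonical pathway, had 241 and 222 CPM in G3-YSD 1 and HSV 1, against 16.2 and 18.2 CPM in mock 1 and hpRNA 1. Bcl3, an atypical IkB protein, had 14.3 and 13.2 CPM in G3-YSD 1 and HSV 1, against 0.4547 and 0.799 CPM in mock 1 and hpRNA 1. Cd40, a receptor that feeds the same pathway, had 390.2 and 406 CPM in G3-YSD 1 and HSV 1, against 26.1 and 29.8 CPM in mock 1 and hpRNA 1. All 5 were past 2-fold in all 4 pairs, as were 22.3% of all genes tested in either direction. That by itself leaves no overlap between the sides, and the naming rule for list members asks for it.

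Among immediate-early genes, transcription factors and regulators switched on without new protein, 12 of 31 measured were higher and 1 was lower, with a median log2 ratio of 0.86. Atf3, a stress-induced repressor, had 44.4 and 41.02 CPM in G3-YSD 1 and HSV 1, against 0.4547 and 0.456 CPM in mock 1 and hpRNA 1. Fosb had 20.8 and 17.8 CPM in G3-YSD 1 and HSV 1, against 0.909 and 1.20 CPM in mock 1 and hpRNA 1. Fos had 20.96 and 18.7 CPM in G3-YSD 1 and HSV 1, against 1.71 and 1.20 CPM in mock 1 and hpRNA 1. Egr1, a zinc-finger factor, had 296 and 246 CPM in G3-YSD 1 and HSV 1, against 19.9 and 19.97 CPM in mock 1 and hpRNA 1. The group was split, since 18 of the 31 were neither higher nor lower, and Ier3 was lower, at 31.1 and 27.7 CPM in G3-YSD 1 and HSV 1, against 67.4 and 69.2 CPM in mock 1 and hpRNA 1; it was named after its values were seen.

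Of the cell death genes, 7 of 23 measured were higher and 0 lower, with a median log2 ratio of 0.59. Over all genes tested 17.3% were higher and 4.98% lower. Caspases of the inflammatory type were among them. Casp4, a sensor of cytosolic lipopolysaccharide, had 152 and 153 CPM in G3-YSD 1 and HSV 1, against 8.64 and 8.39 CPM in mock 1 and hpRNA 1. Casp12 had 45.6 and 43.5 CPM in G3-YSD 1 and HSV 1, against 4.49 and 3.88 CPM in mock 1 and hpRNA 1. Casp1 had 26.9 and 30.04 CPM in G3-YSD 1 and HSV 1, against 3.98 and 2.68 CPM in mock 1 and hpRNA 1. Fas, a death receptor, had 10.6 and 10.6 CPM in G3-YSD 1 and HSV 1, against 1.25 and 0.913 CPM in mock 1 and hpRNA 1. Mlkl, the executor of necroptosis, had 129 and 133 CPM in G3-YSD 1 and HSV 1, against 51.4 and 46.9 CPM in mock 1 and hpRNA 1. The remaining 16 genes stayed within 2-fold in at least 1 pair.

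**Figure D3:**
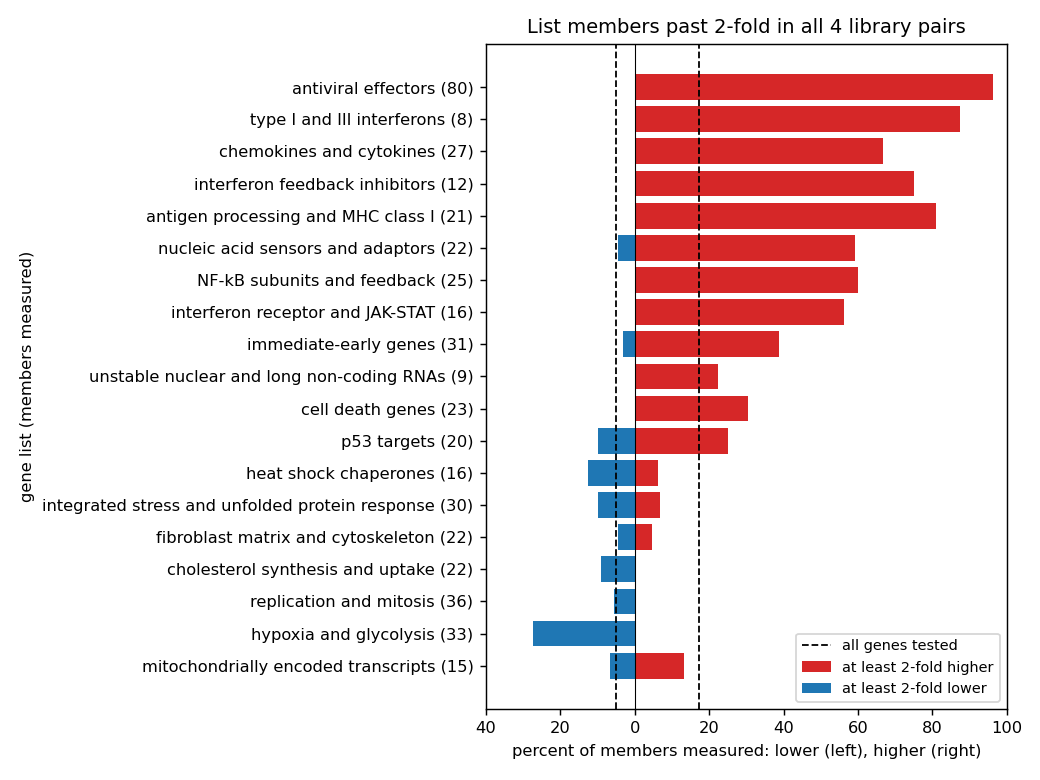
Share of the measured members of each gene list that were at least 2-fold higher (red, to the right of 0) or lower (blue, to the left) in G3-YSD 1 and HSV 1 in all 4 library pairs, in percent; numbers in brackets are the members measured, and dashed lines mark the share over all 16840 genes tested. The interferon pathway lists lie far right of the dashed line at 17.3%, and the hypoxia and glycolysis list, with 9 of 33 lower, reaches furthest left. Only 4 of the 8 type I and III interferon genes pass the filter in the other 10 libraries, so the bar of that list depends in part on the filter.

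The lower genes were fewer and differed less. The rule named 12 of them, from G0s2 to Trerf1, and 11 of these were 5.30 to 10.7 times lower. G0s2, an inhibitor of the lipase ATGL, had 5 counts in G3-YSD 1 and 12 in HSV 1, against 235 in mock 1 and 251 in hpRNA 1, and was the exception at 18.2 to 48.5 times lower. Egln3, an oxygen-sensing prolyl hydroxylase that is itself a hypoxia-induced gene, had 56.9 and 50.7 CPM in G3-YSD 1 and HSV 1, against 478 and 513 CPM in mock 1 and hpRNA 1, 8.41 to 10.1 times lower. Scd2, a stearoyl-CoA desaturase, had 167 and 162 CPM in G3-YSD 1 and HSV 1, against 1207 and 1197 CPM in mock 1 and hpRNA 1, 7.18 to 7.45 times lower. Of the 12 genes, these 2 were the most abundant in mock 1 and hpRNA 1.
Trib2, a pseudokinase, had 14.3 and 11.8 CPM in G3-YSD 1 and HSV 1, against 122 and 126 CPM in mock 1 and hpRNA 1. Map1a, a microtubule-associated protein, had 16.5 and 13.2 CPM in G3-YSD 1 and HSV 1, against 122 and 120.2 CPM in mock 1 and hpRNA 1. Chst1, a carbohydrate sulfotransferase, had 14.2 and 14.5 CPM in G3-YSD 1 and HSV 1, against 94.98 and 98.3 CPM in mock 1 and hpRNA 1. Efna4, an ephrin, had 1.71 and 1.72 CPM in G3-YSD 1 and HSV 1, against 16.9 and 14.3 CPM in mock 1 and hpRNA 1. The other 5, Sh2d3c, Dlx3, Adam19, Ahdc1 and Trerf1, were at or below 10 CPM in G3-YSD 1 and HSV 1.

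As a list, hypoxia and glycolysis genes held the most lower members: 9 of 33 measured were lower and 0 higher, with a median log2 ratio of -0.52. Besides Egln3, they included Eno2, the neuronal enolase isoform that hypoxia induces, with 23.4 and 18.9 CPM in G3-YSD 1 and HSV 1, against 89.4 and 90.3 CPM in mock 1 and hpRNA 1. Ero1l, an oxidase of the endoplasmic reticulum, had 201 and 179 CPM in G3-YSD 1 and HSV 1, against 575 and 558 CPM in mock 1 and hpRNA 1. Adm, the vasodilator adrenomedullin, had 13.3 and 12.3 CPM in G3-YSD 1 and HSV 1, against 39.4 and 42.9 CPM in mock 1 and hpRNA 1. Vegfa, the endothelial growth factor, had 119 and 119 CPM in G3-YSD 1 and HSV 1, against 309 and 317 CPM in mock 1 and hpRNA 1. The core glycolytic enzyme gene Gapdh stayed within 2-fold in every pair, at 62.5 and 62.7 CPM in G3-YSD 1 and HSV 1, against 69.8 and 70.2 CPM in mock 1 and hpRNA 1.
Of the cholesterol synthesis genes, 2 of 22 measured were lower and 0 higher, with a median of -0.39. Fdps, farnesyl diphosphate synthase, had 3.25 and 3.31 CPM in G3-YSD 1 and HSV 1, against 8.75 and 9.19 CPM in mock 1 and hpRNA 1. Dhcr7, the last reductase of the pathway, had 12.2 and 13.5 CPM in G3-YSD 1 and HSV 1, against 33.2 and 39.1 CPM in mock 1 and hpRNA 1. Sqle, squalene epoxidase, had 87.04 and 87.9 CPM in G3-YSD 1 and HSV 1, against 164 and 162 CPM in mock 1 and hpRNA 1, just under 2-fold.

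Other stress programs gave mixed counts. Of 30 genes of the integrated stress and unfolded protein responses, 2 were higher and 3 lower. The lower ones included Herpud1, a degradation factor of the endoplasmic reticulum, at 42.5 and 42.9 CPM in G3-YSD 1 and HSV 1, against 147 and 151 CPM in mock 1 and hpRNA 1. Trib3, a pseudokinase induced by this stress, was at 85.7 and 78.3 CPM in G3-YSD 1 and HSV 1, against 194 and 196 CPM in mock 1 and hpRNA 1. Vldlr, a lipoprotein receptor, was at 41.6 and 42.8 CPM in G3-YSD 1 and HSV 1, against 106 and 111 CPM in mock 1 and hpRNA 1. All 3 of these genes were more than 2-fold lower in each pair. Of 16 heat shock chaperones, 1 was higher and 2 lower, one of them Hspb8, a small chaperone, at 56.1 and 54.9 CPM in G3-YSD 1 and HSV 1, against 131 and 133 CPM in mock 1 and hpRNA 1.
Of 20 p53 targets, 5 were higher and 2 lower. Eda2r, a receptor of the TNF family, was at 81.5 and 87.9 CPM in G3-YSD 1 and HSV 1, against 16.3 and 13.5 CPM in mock 1 and hpRNA 1. Bbc3, the death-promoting protein PUMA, was at 38.6 and 40.2 CPM in G3-YSD 1 and HSV 1, against 18.99 and 18.7 CPM in mock 1 and hpRNA 1. Of 36 replication and mitosis genes, 0 were higher and 2 lower. These were the kinetochore gene Cenpf, at 80.1 and 80.6 CPM in G3-YSD 1 and HSV 1, against 201 and 187 CPM in mock 1 and hpRNA 1, and the checkpoint kinase gene Bub1b, at 64.2 and 65.9 CPM in G3-YSD 1 and HSV 1, against 137 and 139.7 CPM in mock 1 and hpRNA 1. Each of these lists held at most 5 members in either direction, and over all genes 17.3% were higher and 4.98% lower.

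Markers of cell identity were checked beside these results. Of 12 fibroblast markers, 9 were measured, with 1 higher and 1 lower; their summed level was 3913 CPM in G3-YSD 1 and 3642 CPM in HSV 1, against 4587 CPM in mock 1 and 4792 CPM in hpRNA 1. Vim and both type I collagen genes were expressed in all 4 libraries, while Dcn and Lum were at 0 counts in each, so 2 defining fibroblast markers were not detected. Fap had 140 counts in G3-YSD 1 and 153 in HSV 1, against 1 in mock 1 and 0 in hpRNA 1.
Of 12 macrophage and leukocyte markers, 6 were measured and 0 were higher or lower; their sum was 74.9 CPM in G3-YSD 1 and 83.1 CPM in HSV 1, against 95.3 CPM in mock 1 and 100.9 CPM in hpRNA 1, most of it Cd68. Ptprc, the pan-leukocyte gene, had 16 counts in G3-YSD 1 and 17 in HSV 1, against 7 in mock 1 and 11 in hpRNA 1. Of 10 epithelial and endothelial markers, 6 were measured and 4 were higher: Kdr, Krt14, Cdh1 and Tek. Only 3 of the 6 pass the filter in the other 10 libraries, and 1 of these 3 was higher. Kdr, the VEGF receptor of endothelium, had 178 counts in G3-YSD 1 and 133 in HSV 1, against 5 in mock 1 and 3 in hpRNA 1, whereas Krt14, Cdh1 and Tek stayed under 2 CPM in all 4 libraries and Krt5 was at 0. The sum of this list was 14.6 CPM in G3-YSD 1 and 12.4 CPM in HSV 1, against 1.48 CPM in mock 1 and 1.65 CPM in hpRNA 1. These markers were not particular to G3-YSD 1 and HSV 1. Their sum was 8.23 CPM in G3-YSD 2 and 10.7 CPM in HSV 2, against 0.793 CPM in mock 2 and 1.06 CPM in hpRNA 2. In that comparison 3 of the 6 were higher and 0 lower, where 11.1% of all genes tested were higher. The part of other cells in the results was not tested.

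Low-level transcripts appeared in G3-YSD 1 and HSV 1 outside any list. The number of genes detected was 26496 in G3-YSD 1 and 26241 in HSV 1, against 21776 in mock 1 and 21635 in hpRNA 1. More genes were also detected in G3-YSD 2 and HSV 2, at 23997 and 23909, than in mock 2 and hpRNA 2, at 22072 and 22054. A higher number is thus not particular to G3-YSD 1 and HSV 1. There were 760 genes with 0 counts in mock 1 and hpRNA 1 and at least 5 counts in both G3-YSD 1 and HSV 1, and 1 gene the other way round. Of the 760, 408 were protein coding, 130 were lincRNAs, 124 were pseudogenes and 98 were of other types. Their median level was 0.797 CPM, and together they took 0.153% of the counts of G3-YSD 1 and 0.148% of those of HSV 1. They are thus many genes but very few reads.
Mitochondrially encoded transcripts split by kind. The ribosomal RNAs mt-Rnr1 and mt-Rnr2 were the 2 higher members of 15, with mt-Rnr1 at 4903 and 5272 CPM in G3-YSD 1 and HSV 1, against 1138 and 1091 CPM in mock 1 and hpRNA 1, and mt-Rnr2 at 1817 and 1882 CPM in G3-YSD 1 and HSV 1, against 632 and 607 CPM in mock 1 and hpRNA 1. Of the 15, 12 had lower levels in G3-YSD 1 and HSV 1 than in each of the other 10 libraries, and 1 was past 2-fold lower. The share of all counts from mitochondrial genes was 2.03% in G3-YSD 1 and 2.08% in HSV 1, against 2.52% in mock 1 and 2.49% in hpRNA 1. Because the libraries are polyA-selected, the level of a ribosomal RNA also depends on that selection, whose part was not tested.

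G3-YSD 1 and HSV 1 also stood at the edge of the series as a whole. Both lay above each of the other 10 libraries for 4158 of 16840 genes (24.7%) and below each of them for 3186 (18.9%). Among the antiviral effectors, 74 of 80 lay above all 10. The summed effector level of 35022 CPM in G3-YSD 1 and 34902 CPM in HSV 1 compares with 14355 CPM in cGAMP 2 and 13600 CPM in HT-DNA 2, the next highest libraries. It was 9487 CPM in mock 2 and 8653 CPM in hpRNA 2, and 1784 CPM in G3-YSD 2 and 1758 CPM in HSV 2. The order over the series is thus G3-YSD 1 and HSV 1 first, with mock 1 and hpRNA 1 at the bottom, and the other libraries of the same 4 labels lie between them in the reverse order. The order of Ifnb1 was similar at the top. Its level was 26.6 CPM in G3-YSD 1 and 23.9 CPM in HSV 1, 11.2 CPM in HT-DNA 2 and 9.21 CPM in cGAMP 2, and 0 CPM in mock 1 and hpRNA 1.

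The libraries numbered 2 under the same 4 labels give the same measurement in other libraries. Their depth was less even, since G3-YSD 2 and HSV 2 had the lowest totals of the series, 13737622 and 12650790 counts. Mock 2 had 16263972 and hpRNA 2 had 17865784. Mitochondrial genes took 3.64% of the counts in G3-YSD 2 and 3.53% in HSV 2, against 2.07% in mock 2 and 2.12% in hpRNA 2. The part of these differences in what follows was not tested. G3-YSD 2 and HSV 2 were set against mock 2 and hpRNA 2 in the same way. There, 1862 genes were higher (11.1%) and 1766 lower (10.5%). Of the genes higher in the first comparison, 625 were higher in the second too, which is 21.4% of the first list and 33.6% of the second; 302 were lower there. Of the lower genes, 216 were lower in both, 25.8% of the first list and 12.2% of the second, and 18 were higher there.
The effectors went the other way: 64 of 80 were lower in G3-YSD 2 and HSV 2 than in mock 2 and hpRNA 2, 2 were higher, and their median log2 ratio was -2.85, against 6.53 in the first comparison. Ifit1 had 65.7 and 54.9 CPM in G3-YSD 2 and HSV 2, against 486 and 441 CPM in mock 2 and hpRNA 2. Cxcl10 had 75.3 and 66.7 CPM in G3-YSD 2 and HSV 2, against 408 and 381 CPM in mock 2 and hpRNA 2. The sensors likewise had a median of -1.59, with 13 of 22 lower and 0 higher. Both sides of the second comparison differ from the first: mock 2 and hpRNA 2 carried far more effector RNA than mock 1 and hpRNA 1, and G3-YSD 2 and HSV 2 far less than G3-YSD 1 and HSV 1.
The interferon, NF-kB and hypoxia lists were among those with medians of the same sign in both comparisons. Of the interferon genes, 3 of 8 were higher and 0 lower in the second comparison, with a median of 1.05. Of the NF-kB genes, 3 of 25 were higher and 0 lower, a share near the 11.1% of all genes, with a median of 0.56. Nfkbia had 298 and 286 CPM in G3-YSD 2 and HSV 2, against 114 and 115 CPM in mock 2 and hpRNA 2, and Tnfaip3 had 67.6 and 64.7 CPM in G3-YSD 2 and HSV 2, against 21.8 and 18.5 CPM in mock 2 and hpRNA 2. Of the hypoxia and glycolysis genes, 11 of 33 were lower and 0 higher, with a median of -0.45, and Eno2 had 13.5 and 12.1 CPM in G3-YSD 2 and HSV 2, against 118 and 114 CPM in mock 2 and hpRNA 2. The median over all genes tested was 0.06 in both comparisons.

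**Figure D4:**
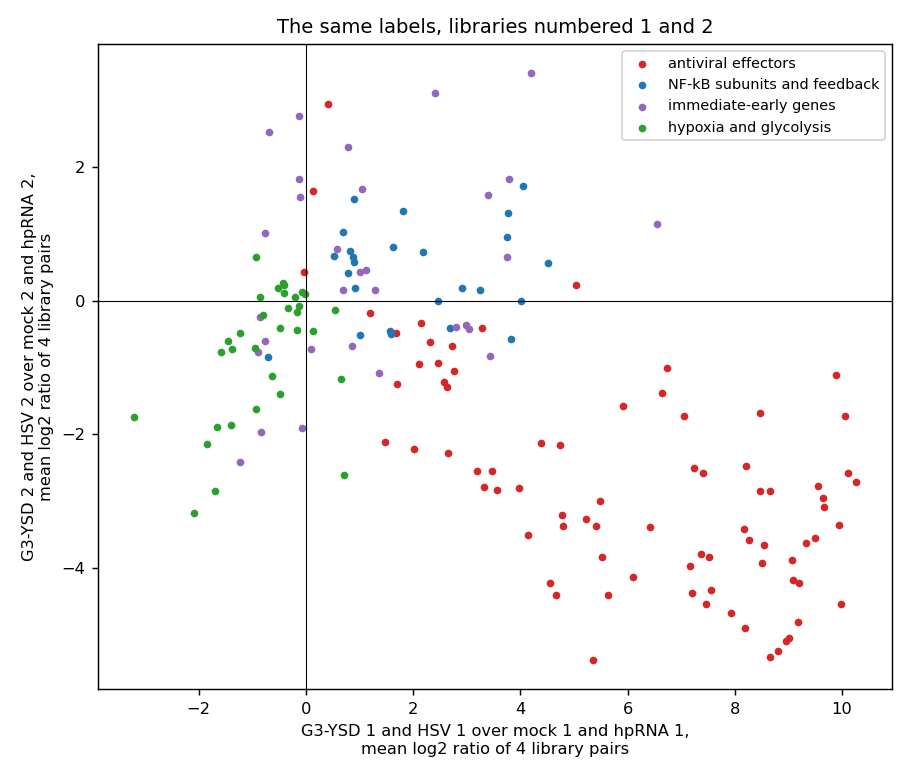
Each point is a measured member of 4 gene lists, with the mean log2 ratio of G3-YSD 1 and HSV 1 over mock 1 and hpRNA 1 on the x axis and that of G3-YSD 2 and HSV 2 over mock 2 and hpRNA 2 on the y axis. Antiviral effectors lie mostly at the lower right, with medians of 6.53 and -2.85, NF-kB genes mostly at the upper right and hypoxia genes mostly at the lower left.

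A test by label put all 4 libraries labelled G3-YSD or HSV against all 4 labelled mock or hpRNA, in an edgeR quasi-likelihood fit of the 12 libraries. It called 2019 genes higher (12%) and 1962 lower (11.7%) at a Benjamini-Hochberg adjusted p under 0.05. Of the 2919 genes higher in G3-YSD 1 and HSV 1, 1070 were among those that rose by label, and of the 838 lower genes, 486 were among those that fell. None was called in the opposite direction. Among the 8 libraries of the test are the 4 described above, and libraries of different labels with the same number deviated together, with a correlation of 0.98 between G3-YSD and HSV and of 0.94 between mock and hpRNA over 10643 genes. The 4 libraries of a side are therefore not independent, and the p-values are too small. Leaving out mock 1 gave 569 higher and 935 lower calls, leaving out hpRNA 1 gave 573 and 946, leaving out mock 2 gave 678 and 1149, and leaving out hpRNA 2 gave 676 and 1117. A fit of the 8 libraries alone gave 643 higher and 743 lower.

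By label, 0 of 80 antiviral effectors were called in either direction by edgeR. At an unadjusted p under 0.05, 7 were higher and 0 lower. With DESeq2, 12 were called higher and 0 lower, and edgeR run without a low-count filter called 31 higher and 0 lower. With upper quartile scaling 1 was called higher. Leaving out G3-YSD 2 or HSV 2 gave 3 higher calls, and leaving out G3-YSD 1 or HSV 1 gave 1. Ifit1 had a log2 change of 1.96 (standard error 1.86, adjusted p = 0.451) in the edgeR test, while the G3-YSD libraries held 1805 CPM (number 1) and 65.7 CPM (number 2).
Of 25 NF-kB genes, by contrast, 14 rose and 1 fell, where 12% of all genes tested rose and 11.7% fell. The number that rose was 7 without mock 1 or hpRNA 1 and 8 without mock 2 or hpRNA 2. Nfkbia rose, with a log2 change of 1.58 (standard error 0.13, adjusted p = 7.06e-04) in the edgeR test, and Tnfaip3 rose, with a log2 change of 2.90 (standard error 0.49, adjusted p = 0.00598). In both, all 4 libraries labelled G3-YSD or HSV lay above all 4 labelled mock or hpRNA. The share of all genes separated in this way was not counted, here or below, and the 4 libraries of a side are not independent.
Of 31 immediate-early genes, 11 rose and 2 fell, where 12% of all genes tested rose and 11.7% fell. The number that rose was 6 without mock 1 or hpRNA 1 and 7 without mock 2 or hpRNA 2, and the number that fell was 4 without G3-YSD 1 or HSV 1. Fosb rose, with a log2 change of 3.87 (standard error 0.30, adjusted p = 5.24e-04) in the edgeR test, and Fos rose, with a log2 change of 2.86 (standard error 0.43, adjusted p = 0.00369), again with all 4 libraries above the other 4.
Of 33 hypoxia and glycolysis genes, 12 fell and 0 rose, where 11.7% of all genes tested fell and 12% rose. At an unadjusted p under 0.05, 15 were lower and 0 higher, and with DESeq2 14 were called lower and 0 higher. The number was 8 by edgeR without mock 2 or hpRNA 2. Eno2 fell, with a log2 change of -2.60 (standard error 0.25, adjusted p = 9.54e-04) in the edgeR test, and Egln3 fell, with a log2 change of -2.30 (standard error 0.43, adjusted p = 0.00875); all 4 libraries lay below the other 4. Of 22 cholesterol genes, 8 fell, where 11.7% of all genes tested fell. Among the 8 was Fdps, with a log2 change of -1.62 (standard error 0.17, adjusted p = 0.00123) in the edgeR test.
The receptor chain Ifnar1 fell slightly, with a log2 change of -0.56 (standard error 0.11, adjusted p = 0.0106) in the edgeR test, and all 4 libraries lay below the other 4; in a fit of the 8 libraries alone its adjusted p was 0.0621. Ifnb1 had a log2 change of 4.78 (standard error 1.63, adjusted p = 0.0648) in the edgeR test and was not called, while DESeq2 (adjusted p = 0.019) and edgeR without the filter on low counts (adjusted p = 9.81e-05) called it. All 4 libraries labelled G3-YSD or HSV lay above those labelled mock or hpRNA. Of the other interferons, Ifna13 rose, with a log2 change of 6.30 (standard error 1.02, adjusted p = 0.00664) in the edgeR test and counts in all 4 libraries labelled G3-YSD or HSV.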

How the data were processed

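For each of the 12 libraries, 2 under each of 6 labels, the authors deposited whole-number read counts for Ensembl genes. Alignment and counting used HISAT2, HTSeq and mm10, per the submitters' processing notes. Versions and strand setting: not given in the sources used here. Without these settings, it is not known whether reads of overlapping or near-identical genes were shared or left out of the counts. Of 54532 genes, 54495 matched GENCODE M21, which gave symbols and positions. Counts were scaled by TMM and filtered with edgeR 4.0.16 in R 4.3.3, leaving 16840 genes. The 4 chosen libraries were described by 4 ratios with no test. Labels were tested with edgeR's quasi-likelihood test over all 12 libraries (6 residual degrees of freedom, biological coefficient of variation 0.397), Benjamini-Hochberg adjusted. The p-values measure the spread between libraries of a label, which may be technical. On simulated counts for the comparison by label over 16840 genes, this test found 15 of 67 genes with a log2 change of 1, 56 of 67 with one of 2, and 66 of 66 with one of 4, and made 6 false calls. The simulated libraries were drawn independently of each other. In the real data same-numbered libraries of a side deviated together, so these numbers do not carry over to the real libraries. Named genes are the 12 with the largest smallest ratio in each direction at 10 CPM or more, leaving out predicted genes and pseudogenes, up to 4 per list, and a hand-written set. The members, the 22 lists and the rule were chosen with earlier results of these data known, and the kB motif was added after that. Other scalings, filters, DESeq2 1.42.0, the replicate block and leaving out each library were tried. Promoters were searched in the RefSeq table.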

Additional observations from a re-analysis of the deposited data

Results flagged for a closer look

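Of the 22 gene lists, 11 had medians of opposite sign under the same labels in the libraries numbered 1 and in those numbered 2, in all 4 library pairs of each comparison. Each is given here as the median log2 ratio of G3-YSD 1 and HSV 1 over mock 1 and hpRNA 1, and then of G3-YSD 2 and HSV 2 over mock 2 and hpRNA 2. The antiviral effectors stood furthest apart, with medians of 6.53 and -2.85. The nucleic acid sensors and adaptors had 1.81 and -1.59, and the interferon feedback inhibitors 2.37 and -0.86. The interferon receptor and JAK-STAT genes had 1.42 and -0.37, the chemokines and cytokines 2.56 and -0.22, and the antigen processing and MHC class I genes 2.05 and -0.17. Cell death genes had 0.59 and -0.31, and p53 targets 0.42 and -0.30. In the remaining lists the first comparison was the lower one, with -0.37 and 0.76 for the fibroblast matrix and cytoskeleton genes, -0.38 and 0.65 for the fibroblast markers, and -0.73 and 0.87 for the mitochondrially encoded transcripts. The difference between the comparisons was not tested.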

How the results depend on the processing

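Raising the threshold to 4-fold left 1626 genes higher and 60 lower in G3-YSD 1 and HSV 1 than in mock 1 and hpRNA 1; the other scalings, no filter and leaving out 1 library kept both counts within 1.5 times, with 3170 to 3267 higher and 987 to 1108 lower when 1 library was left out. Upper quartile scaling moved the median log2 ratio of all genes to 0.13. By label, DESeq2 called 3162 genes higher, no filter on low counts gave 3433 higher, and the 8 libraries alone gave 643 higher and 743 lower. Upper quartile scaling gave 2820 higher and 1351 lower, against 2019 and 1962 with TMM. Leaving out 1 library gave 569 to 2260 higher calls and 935 to 2460 lower calls; fewer libraries enter these fits, and a lone library is assumed to vary like the other groups. Same-numbered libraries deviated together within a side, with the correlations given above, but in opposite ways across it, at -0.55 to -0.54, so the number did not pair G3-YSD or HSV with mock or hpRNA; the replicate block gave 2144 higher and 2227 lower calls. The log2 fold change of Ifit1 by label, 1.96, ran from -0.049 without HSV 1 to 5.38 without mock 2; the cause was not tested. For the 35 named genes tested by label, 13 alternatives gave 455 values: 374 kept direction and call, 78 lost the call, 2 gained it and 1 reversed. Of the 33 called genes, 14 lost the call at least once. Ratios under about 10 counts are coarse, since 1 count more or less moves them.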

Other observations

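Abundant genes outside the lists also stood apart in G3-YSD 1 and HSV 1, and the ones given here were chosen after their values were seen. Rnf213, a giant ubiquitin ligase with antimicrobial activity, had 2598 and 2665 CPM in G3-YSD 1 and HSV 1, against 167 and 168 CPM in mock 1 and hpRNA 1. Fam126a had 1683 and 1677 CPM in G3-YSD 1 and HSV 1, against 113 and 111 CPM in mock 1 and hpRNA 1. H3f3b, a gene of histone H3.3, had 2322 and 2331 CPM in G3-YSD 1 and HSV 1, against 490.1 and 513 CPM in mock 1 and hpRNA 1. The metal-binding metallothioneins moved together, with Mt1 at 1973 and 2075 CPM in G3-YSD 1 and HSV 1, against 515 and 544 CPM in mock 1 and hpRNA 1, and Mt2 at 39.98 and 43.3 CPM in G3-YSD 1 and HSV 1, against 10.4 and 11.3 CPM in mock 1 and hpRNA 1. Txnip, an inhibitor of thioredoxin and of glucose uptake, had 665 and 605 CPM in G3-YSD 1 and HSV 1, against 104 and 111 CPM in mock 1 and hpRNA 1. Of these genes, Mt1, Mt2 and Txnip also rose by label, with adjusted p of 0.024, 0.0235 and 0.000706 in the edgeR test.

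One gene was far apart between the otherwise close G3-YSD 1 and HSV 1. Gm10095, chosen after its values were seen, had 2470 counts in G3-YSD 1 and 1 count in HSV 1, against 1 count in mock 1 and 3 counts in hpRNA 1. It also had 2506 counts in HT-DNA 1, and at most 31 counts in the other libraries.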
